A study of Mus musculus with 2 samples.

Results

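Carbonic anhydrases are zinc enzymes that interconvert carbon dioxide and water with bicarbonate and a proton. In the intestinal epithelium they supply the ions that Na+/H+ and Cl-/HCO3- exchangers carry across the cell membrane, and the isoforms differ in where they work, in the cytosol, in the mitochondria or at the cell surface. The isoforms named for the comparison were Car1, Car2, Car4, Car5b, Car7, Car8, Car9, Car12 and Car13, and they were found by gene symbol in the table of raw read counts. Of these 9 genes, 8 were among the 19294 genes of the table and Car1 was not, so Car1 was not analysed here. Each of the 8 reached 10 counts in one or both libraries.

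The mouse intestinal organoids (mIOs) came from crypts of the jejunum. The donor line was Lgr5-EGFP-IRES-creERT2, in which EGFP and an inducible Cre are expressed from the locus of the stem cell gene Lgr5. Both groups carried this genotype and were kept in Matrigel with EGF, Noggin and R-spondin. The control group was untreated, and the DSS group received dextran sulfate sodium, a sulfated polysaccharide that injures the epithelium, for 4 days. The age of the mice and the DSS dose of the sequenced culture are not given in the sources used here. mRNA-seq was performed on 1 library per condition, with a depth of 65493032 counts for the control and of 59746968 for DSS, so that the treatment and the culture cannot be told apart and the spread between cultures is unknown. No test was made, and the 95% intervals in the text are exact Clopper-Pearson intervals that cover counting error only. The labels call the cells intestinal stem cells, and the crypt stem cell markers were present at a summed 2506 CPM (read counts set to a common library size) in control mIOs and at 484 CPM in DSS-treated mIOs. The libraries also held the markers of mature cells, since the summed level of 29 enterocyte genes was 5365 CPM in control and 38796 CPM in DSS-treated mIOs.

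Catalysis depends on a zinc ion held by histidine side chains. The coding bases around the first pair of these residues show which of the isoforms carry them, and they are given here for the 8 listed isoforms from GENCODE vM21 transcripts, with the codons at both histidine positions in capitals.
Car2: cagtttCACtttCACtggggc
Car13: cagttcCATttgCACtggggg
Car7: cagctcCACttcCACtggggc
Car5b: cagtttCATtttCATtgggga
Car9: cagttgCATctaCACtgggga
Car12: cagctgCACttgCACtggggg
Car4: cagttgCACctgCACtggtca
Car8: gaagttAGAtttCACtgggga
In 7 of the 8 isoforms both codons encode histidine (CAC or CAT). In Car8 the first codon is AGA, which encodes arginine, and Car8 is known as a carbonic anhydrase-related protein without catalytic activity that binds the IP3 receptor. Outside such short stretches the genes differ, and the longest exact stretch shared by transcripts of listed isoforms was the 30 bases common to Car2 and Car13.

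Among the 8 isoforms, Car4, Car2, Car7 and Car13 had higher scaled counts in the DSS library, with a log2 fold change (log2FC, the log2 ratio of scaled counts, DSS over control) of 1 or more, and Car12 and Car5b had lower ones by -1 or less. Car9 and Car8 lay between these lines. The 4 higher isoforms compare with 19.3% of all 17235 genes at 1 or more, and the 2 lower isoforms with 20.2% of all genes at -1 or less. At 2 or more, where 7.87% of all genes lay, there was Car4 alone, and at -2 or less, where 6.54% of all genes lay, there was Car12 alone. Car4, with 4 control counts, passed the minimum of 10 counts only through the DSS library. With 10 counts required in both libraries, which leaves out Car4, 3 isoforms lay at 1 or more and none at 2 or more. The share of all genes under that minimum was not computed. The median log2FC was 0.68 over the 8 isoforms and -0.06 over all genes. These ratios rest on the trimmed mean of M-values (TMM) scaling. When the libraries were scaled by their total counts instead, the median of all genes shifted by -0.26, and Car2 and Car4 were the 2 isoforms left at 1 or more. At this setting 2659 of all 17235 genes lay at 1 or more, against 3330 with TMM factors. Of all genes past either line at 1, 48.9% were higher in the DSS library with TMM factors and 37.1% with total counts.

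**Figure D1:**
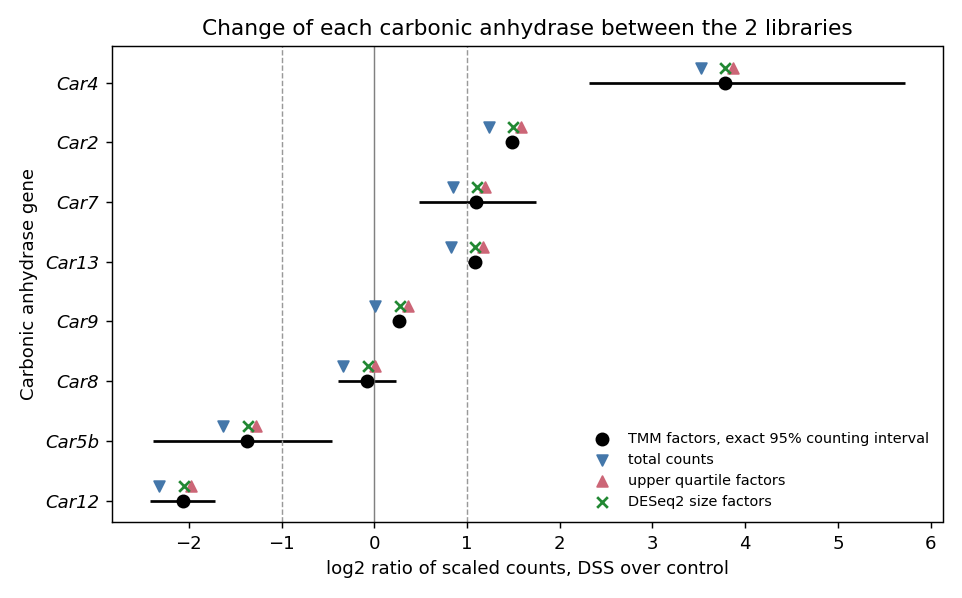
Log2FC of scaled counts, DSS over control, for the 8 listed carbonic anhydrases (vertical axis), with the exact 95% counting interval as a black bar around the TMM value and the values under 3 other scalings drawn above it; dashed lines mark -1 and 1. Car4 at 3.78 has the widest interval, Car12 at -2.06 is the lowest, and Car7 and Car13 fall below 1 with total counts.

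Of the cytosolic isoforms, Car2, a fast enzyme found in many epithelia and in red blood cells, had 3079 control and 6606 DSS counts. Scaled with TMM factors, this was 43.0 CPM in control and 121 CPM in DSS-treated mIOs, a log2FC of 1.49 (interval 1.43 to 1.55). Its level stood at the percentile 73.9 of all genes in control mIOs and 90.3 in DSS-treated mIOs. Car2 was thus 2.81 times higher in the DSS library, and with total counts its log2FC was 1.23.

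Car13, a cytosolic isoform known from the intestine and other epithelia, went the same way with a smaller difference. It had 2610 control and 4225 DSS counts, or 36.5 and 77.3 CPM. The log2FC was 1.08 (interval 1.01 to 1.15), below that of Car2 with no overlap of the counting intervals, and it was 0.83 with total counts. Car2 and Car13 lie close together on chromosome 3, where the order of protein-coding genes is Car13, Car1, Car3 and Car2. The table lists the outer genes of this cluster and neither of the inner ones.

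Car7, the cytosolic isoform best known from the brain and the colon, was low, at the percentiles 17.9 of all genes in control and 23.6 in DSS-treated mIOs. It had 36 control and 59 DSS counts, or 0.503 and 1.08 CPM. The log2FC of 1.10 had a counting interval of 0.48 to 1.74, so the counting error alone left it on either side of 1. Together the 3 cytosolic isoforms summed to 80.0 CPM in control and 199 CPM in DSS-treated mIOs, a log2FC of 1.32 (interval 1.27 to 1.36).

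Car9, a transmembrane isoform with its active site outside the cell and a known target of the hypoxia-inducible factors, was the most abundant isoform in both libraries. It had 27856 control and 25636 DSS counts, or 389 and 469 CPM. These levels stood at the percentiles 98.3 and 98.2 of all genes. The log2FC was 0.27 (interval 0.24 to 0.29), and it was between 0.27 and 0.36 with DESeq2 size factors, centring on the median of all genes or upper quartile factors, but 0.013 with total counts. The exons of Car9 share 214 bases with an antisense gene, Gm12454, which is not in the table, and whether the counting used the strand of the stranded libraries is not given in the sources used here.

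The promoter of Car9 carries the core of a hypoxia response element, ACGTG, in its last bases before the start of transcription. The 250 bases upstream of the start are shown for Car9 and, because it is the surface isoform that differed most in the other direction, for Car12, from RefSeq on GRCm38.p6. The core on either strand is in capitals. The Car9 sequence is chr4:43506776-43507025 on the plus strand and that of Car12 is chr9:66713436-66713685 on the plus strand.
Car9: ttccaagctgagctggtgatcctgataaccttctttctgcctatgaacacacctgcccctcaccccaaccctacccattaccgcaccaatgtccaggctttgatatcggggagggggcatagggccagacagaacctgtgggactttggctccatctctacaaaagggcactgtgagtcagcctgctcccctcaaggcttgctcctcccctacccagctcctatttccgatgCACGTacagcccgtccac
Car12: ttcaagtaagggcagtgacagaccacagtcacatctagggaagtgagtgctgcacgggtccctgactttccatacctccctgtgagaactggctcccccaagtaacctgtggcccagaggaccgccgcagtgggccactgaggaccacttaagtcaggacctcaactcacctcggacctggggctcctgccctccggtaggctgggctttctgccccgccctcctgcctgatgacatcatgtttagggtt
In Car9 the core reads CACGT on the strand of the gene, which is ACGTG on the other strand, and begins 18 bases before the start. The Car12 window does not hold these letters. Promoters were given for 5 of the isoforms (Car4, Car5b, Car7, Car9 and Car12), with 3 start sites for Car7, and 1 of these 7 windows held the core. Over 32851 promoters of all genes, 16.6% of the windows held it on either strand, with CACGTG counting on both. A match describes letters in the sequence and is not evidence of binding.

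Car12, also a transmembrane isoform with an extracellular active site, had the lowest log2FC of the 8 isoforms. It had 443 control and 81 DSS counts, or 6.19 and 1.48 CPM, and was 4.18 times higher in the control. This log2FC was -2.06 (interval -2.42 to -1.72). Car4, an isoform held on the outer membrane by a lipid anchor and abundant on colonic surface cells, had the highest. It had 4 control and 42 DSS counts, or 0.0559 and 0.768 CPM. Its log2FC of 3.78 was higher than that of 98.6% of all genes, but the interval ran from 2.32 to 5.72 because of the 4 control counts, and with a prior count of 2 the log2FC was 3.19. Both surface isoforms were scarce beside Car9, so that the sum of the 5 surface or secreted isoforms in the table, Car6 and Car15 included, followed Car9 at a log2FC of 0.25 (interval 0.23 to 0.28). With total counts this sum was at -0.0017.

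Car5b, the mitochondrial isoform, had 44 control and 13 DSS counts, or 0.615 and 0.238 CPM. The log2FC was -1.37 (interval -2.39 to -0.45). The other mitochondrial gene, Car5a, is not in the table. Car8, the isoform with the arginine codon shown above, had 203 control and 147 DSS counts, or 2.84 and 2.69 CPM. Its log2FC was -0.08, and the interval from -0.39 to 0.24 included 0.

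Of the 7 carbonic anhydrase genes outside the named isoforms, Car6, Car11 and Car15 were in the table and Car3, Car5a, Car10 and Car14 were not. Car6, the secreted isoform of saliva, had 96 control and 89 DSS counts and a log2FC of 0.28 (interval -0.15 to 0.71). Car11, which like Car8 has no catalytic activity, had 17 and 44 counts and a log2FC of 1.76 (interval 0.92 to 2.66). Car15, a membrane-anchored isoform, had 61 and 84 counts and a log2FC of 0.85 (interval 0.36 to 1.35), and its exons share 1253 bases with the overlapping gene Gm20518 on the same strand, which is not in the table.

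Levels were compared between isoforms as CPM per kilobase of the longest annotated transcript. In the control library Car9 was at 192 CPM per kilobase, 8.0 times the level of Car2 at 24.1 (interval from 7.70 to 8.30). Car13 followed at 15.9, Car12 at 1.67, Car8 at 0.736, Car7 at 0.259, Car5b at 0.179 and Car4 at 0.0445. Neighbours in this order differed beyond counting error except Car7 and Car5b, whose ratio of 1.45 had an interval from 0.905 to 2.30. In the DSS library Car9 was at 232 CPM per kilobase, 3.43 times the level of Car2 at 67.6 (interval from 3.34 to 3.52), and Car13 was at 33.6.

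Below these 3 isoforms the order was not the same in the DSS library. Car8 was at 0.698 CPM per kilobase, Car4 at 0.612, Car7 at 0.555 and Car12 at 0.399, and neighbours among these 4 did not differ beyond counting error. The ratio of Car4 to Car8 was 0.876 (interval from 0.607 to 1.24), that of Car4 to Car7 was 1.10 (from 0.723 to 1.66) and that of Car7 to Car12 was 1.39 (from 0.979 to 1.97). Car5b was last at 0.0692. Car12 had stood above Car8 by 2.26 times in the control and stood at 0.571 times its level in the DSS library (interval from 0.430 to 0.754), an order that turned around with the shortest annotated transcript of Car12.

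**Figure D2:**
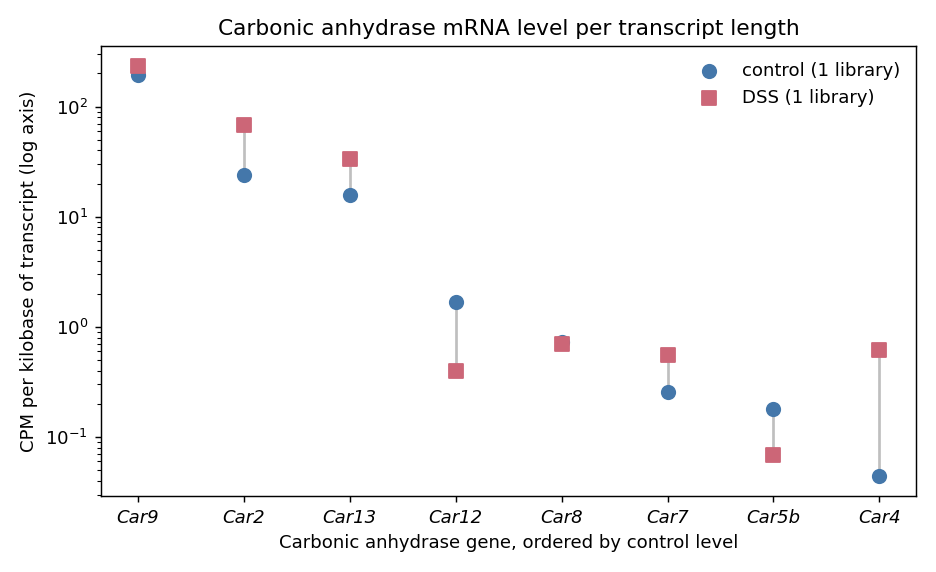
Level of each listed carbonic anhydrase in CPM per kilobase of the longest transcript (log axis) in the control library (circles) and the DSS library (squares), 1 library each and without error bars; grey lines join both values of a gene. Car9, Car2 and Car13 lie above 10 in both libraries, and the other 5 lie below 2.

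The make-up of the family does not depend on how the libraries were scaled. Car9 gave 81.3% of the 34275 counts of the 8 isoforms in the control (interval from 80.9 to 81.7%) and 69.6% of 36809 in the DSS library (from 69.2 to 70.1%). Car2 and Car13 together gave 16.6% of the control and 29.4% of the DSS counts, with intervals from 16.2 to 17.0% and from 29.0 to 29.9%. The other 5 isoforms gave 2.13% and 0.929%. Per length, the share of Car9 was 81.8% for the control and 69.1% for DSS. The surface enzyme Car9 was thus the main isoform in both libraries, with a larger cytosolic part in the DSS library. The sum of the 8 isoforms was 479 CPM in control and 673 CPM in DSS-treated mIOs, a log2FC of 0.49, and without Car9 it was 1.19.

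**Figure D3:**
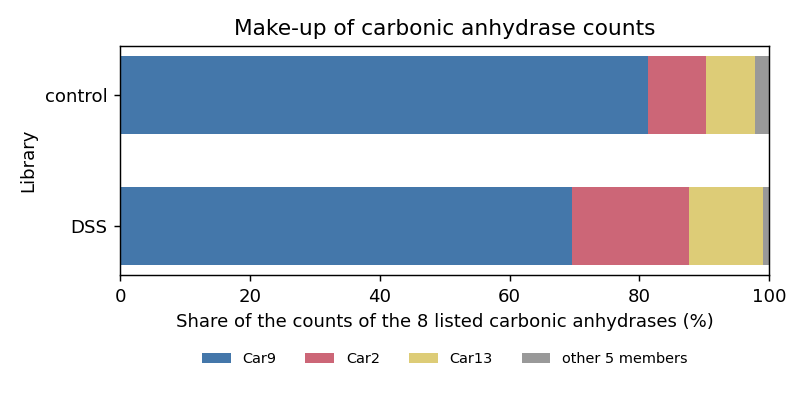
Share of the summed counts of the 8 listed carbonic anhydrases (horizontal axis, percent) given by Car9, Car2, Car13 and the other 5 isoforms in each library (vertical axis). The part of Car9 is 81.3% for the control and 69.6% for DSS.

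The genes that carry bicarbonate and acid across the membrane were described by a list of 28 genes, of which 25 were in the table. A log2FC of 1 or more was reached by 13 of them and -1 or less by 4, with a median of 1.01. Pdzk1, a scaffold protein of the brush border, was at 4.18, and Slc26a4, an anion exchanger, at 2.81. Slc12a2, the basolateral Na-K-Cl cotransporter of crypt cells, was at -3.25. Chosen after their values were seen, the apical Na+/H+ exchanger Slc9a3 was at 2.23, the anion exchangers Slc26a6 and Slc26a3 at 2.08 and 1.42, and the chloride and bicarbonate channel Cftr at -2.19. Not all exchangers of the list were higher in the DSS library, since the Na+/H+ exchanger Slc9a8, also named after its value was seen, was at -0.25 (interval -0.32 to -0.18).

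Bicarbonate is also a substrate of carboxylating enzymes. All 10 enzymes of that list were in the table, with 1 at a log2FC of 1 or more, 5 at -1 or less and a median of -0.93. The list also held Otc, at 0.34, which does not itself use bicarbonate. Pcx, the mitochondrial pyruvate carboxylase, was at 1.61, the acetyl-CoA carboxylase Acacb at -1.99, and Cad, which starts pyrimidine synthesis, at -2.86. The mitochondrial isoform Car5b lay on the other side of 0 from Pcx, but on the same side as 8 of the 10 genes of the list. For Car8, the known partner gene Itpr1 had a log2FC of -0.05 (interval -0.20 to 0.09), Itpr3 was at 0.01 and Itpr2 at -1.94.

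For Car9, the list of hypoxia response genes had 27 of 29 genes in the table, with 2 at 1 or more, 2 at -1 or less and a median of -0.01. Pfkfb4 was at 1.88, Ndrg1 at 1.5 and Ddit4, which also responds to other stresses, at -1.21. Of the 7 regulators of this response none was past 1 or -1, with a median of 0.10. Hif3a was at 0.86, Hif1a at 0.78 and Epas1 at 0.63. Car9 and the median of its pathway list both lay within 1 of 0 on the log2 scale. Most genes did so too, since 19.3% of all genes lay at 1 or more and 20.2% at -1 or less.

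The cell type lists had medians farther from 0, and in bulk RNA fewer cells of a type and less RNA per cell cannot be told apart. All 29 enterocyte genes were at 1 or more, with a median of 2.88 and the highest values for Ada at 5.30, Apoa1 at 5.27 and Slc15a1 at 4.66. Of 14 crypt stem cell genes, 13 were at -1 or less, with a median of -3.41, and Olfm4 was at -9.59, Ascl2 at -4.31 and Axin2 at -4.26. Goblet cell genes had 10 of 11 at 1 or more and a median of 3.25, led by Clca1 at 9.29, Zg16 at 8.64 and Fer1l6 at 6.72. Enteroendocrine genes had 17 of 20 at 1 or more, 1 at -1 or less and a median of 2.32, with Nts at 3.67, Sct at 3.46 and Neurog3 at -3.14. Paneth cell genes had 1 of 11 at 1 or more, 7 at -1 or less and a median of -1.06. Defa17 was at -3.87 and Defa22 at -2.95, and reads of the near-identical defensins may be split among them. Guca2b, at 3.71, was the only gene of this list above 0, and the other 10 lay below 0. Tuft cell genes had 1 of 10 at 1 or more, 6 at -1 or less and a median of -1.29. Pou2f3 was at -2.20, Plcb2 at -1.87 and Trpm5 at -0.88. With 10 counts required in both libraries, 0 tuft cell genes lay at 1 or more and 3 at -1 or less. The part of these cell types in the differences of the carbonic anhydrases was not tested.

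Since Car4 is abundant in the colon, genes of colonic epithelium were listed as well. Of 15 such genes, 6 were in the table and 5 of these were at 1 or more, against 19.3% of all genes. Of these 5, 1 passed the minimum of 10 counts only through the DSS library. With 10 counts required in both libraries, 4 lay at 1 or more. Guca2a was at 3.58, Mettl7b at 1.77 and Slc26a3 at 1.42, and these are also expressed in the small intestine. The posterior Hox genes of the list (Hoxb13, Hoxd10, Hoxd13 and Hoxa13) are not in the table. Of 18 intestinal transcription factors 3 reached 1 or more and 2 lay at -1 or less, with a median of 0.15. Over all genes 19.3% lay at 1 or more and 20.2% at -1 or less. Esr1, 1 of the 2 lower factors, had 27 control and 4 DSS counts. With 10 counts required in both libraries, 1 factor lay at -1 or less. Hnf4g was at 2.24, Klf4 at 1.47 and Cdx2 at -1.35.

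**Figure D4:**
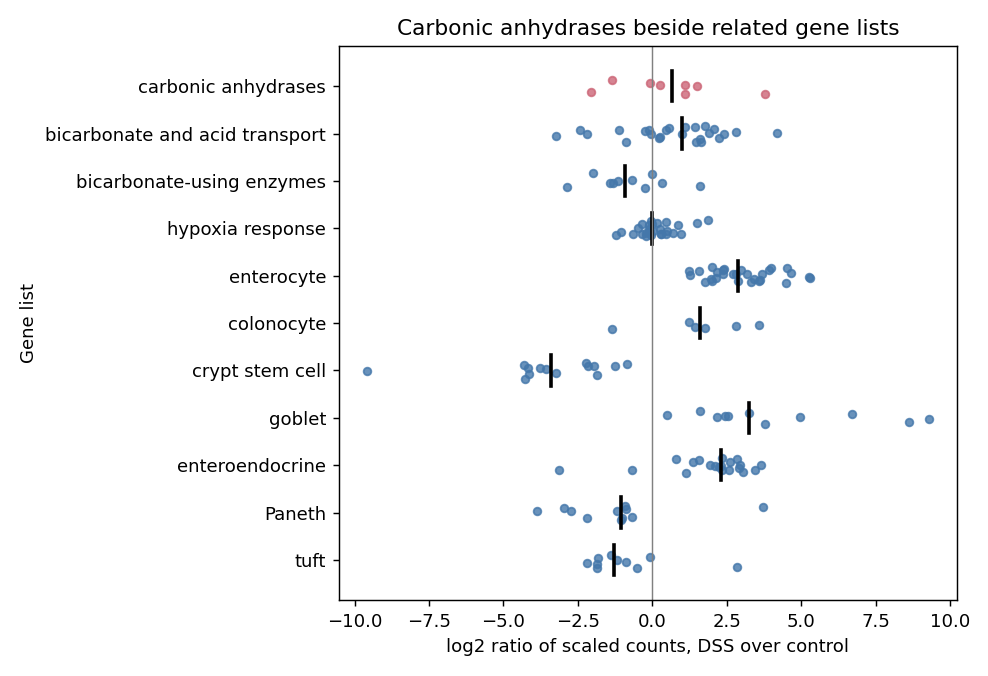
Log2FC of scaled counts, DSS over control, of each gene (point) that reached 10 counts in one or both libraries, by gene list (vertical axis), with the list's median as a black line; the vertical scatter within a list carries no meaning. The 8 carbonic anhydrases spread from -2.06 to 3.78 on both sides of 0, while all 29 enterocyte genes lie above 0 and all 14 crypt stem cell genes below.

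Car2 is abundant in red blood cells and blood vessels express Car4, so markers of cells outside the epithelium were also counted. Of 12 erythroid genes, Epb42, Klf1 and Tfrc were in the table, with none at 1 or more, 2 at -1 or less and a median of -1.17 (Epb42 at -1.49 and Tfrc, which dividing cells also express, at -1.17), and the globin genes are not in the table. The summed level of the 3 erythroid genes was 1180 CPM for control and 523 CPM for DSS organoids, of which Tfrc made up 1176 and 522 CPM. The part of such cells in the difference of Car2 was not tested. Of 10 endothelial genes 5 were in the table, at a summed 11.4 CPM for the control and 7.10 CPM for DSS, with 3 at 1 or more, 1 at -1 or less and a median of 2.58. Tek had 12 control and 97 DSS counts and Pecam1 had 12 and 55, at log2FC values of 3.40 and 2.58, while Egfl7 was at -1.59, and Cdh5 and Kdr are not in the table. Of 14 immune genes 7 were in the table, at a summed 17.0 and 29.4 CPM, with 3 of 6 at 1 or more and a median of 0.90 (Itgam at 1.14, Cd14 at 0.75 and Cd68 at 0.73), and Ptprc is not in the table. Of 14 mesenchymal and muscle genes 7 were in the table, at a summed 7.42 and 36.7 CPM. Of these, 3 of 6 were at 1 or more, with a median of 0.99. Vim at 2.70 gave most of the summed level (Pdgfrb was at 0.32). Acta2 and Col6a1 passed the minimum of 10 counts only through the DSS library, and the median includes them. With 10 counts required in both libraries, 1 mesenchymal gene and 2 immune genes lay at 1 or more. Under the same minimum, 2 endothelial genes remained past that line. The endothelial median of 2.58 includes Tie1, which had 5 control and 29 DSS counts and passed only through the DSS library. The endothelial median without Tie1 was not computed. Of the 5 endothelial genes 3 were above 0, as Car4 was, and 2 were below, and their summed level was lower in the DSS library. The part of such cells in the difference of Car4 was not tested.

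Among the 193 list genes with at least 50 counts in a library, the gene nearest in log2FC was Ldha for Car9, Ndrg1 for Car2, Atp1b1 for Car13, Nr1h4 for Car7, Avil for Car8 and Acacb for Car12. The distance was at most 0.01 for the first 5 of these and 0.08 for Car12. With 2 libraries this likeness rests on a single difference per gene.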

How the data were processed

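Raw read counts per gene, as deposited by the authors, were used for 1 control and 1 DSS library of mIOs. Both libraries are stranded poly(A) libraries. HISAT2 and StringTie are named in the submitters' processing notes, and the genome build and annotation release are not given in the sources used here. The files of the single samples are named for FPKM but hold the same counts as the common table for all 19294 genes, so no FPKM value was used. The lowest count in the table is 1, in both libraries, so a gene without counts in a library is not listed.

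Effective library sizes were taken from TMM factors (1.09 for the control, 0.915 for DSS) in edgeR 4.0.16 under R 4.3.3. Log2 fold changes (log2FC) were given exact Clopper-Pearson 95% intervals. A gene entered the counts past the lines at 1 and 2 when it reached 10 counts in one or both libraries. With 1 library per group no test, SD or p-value was possible. On simulated counts of 19005 genes for DSS against control, 100% of the 100 genes simulated with a log2FC of 3 or -3 lay past 1, and the interval held 0 for 96.0% of unchanged genes. Few genes were changed in this simulation, equally often up and down, and with counting noise only. It therefore checks the calculation and cannot check the scaling or the spread between cultures.

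Lengths, coding bases and exon overlaps came from GENCODE vM21 (GRCm38) by gene symbol, gene order and promoters from RefSeq (GRCm38.p6), with Biopython 1.88. The protein comparison that had been planned was not run, and coding bases were shown instead. The named genes are the isoforms, other carbonic anhydrases in the table, and up to 3 genes per list with the largest absolute log2FC and at least 50 counts in a library. A gene of the colonic list is not reported here. The isoforms and the 18 gene lists were chosen with earlier results of these data known. Other scalings were total counts, size factors of DESeq2 1.42.0, upper quartile factors and centring on the median of all genes. A prior count of 2, a thinned control library, other count minimums and other transcript lengths were also tried.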

Additional observations from a re-analysis of the deposited data

How the results depend on the processing

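With total counts the log2FC was 1.23 for Car2, 0.013 for Car9 and 0.83 for Car13, and the summed counts were at 0.24 for the 8 isoforms, 0.93 without Car9, 1.06 for the cytosolic isoforms and -0.0017 for the surface or secreted ones, the last with a turned sign. With upper quartile factors these values were 1.58, 0.36 and 1.17 for the genes and 0.58, 1.28, 1.41 and 0.34 for the sums. Centring on the median of all genes gave 0.33 for Car9 and 0.55, 1.25, 1.37 and 0.31 for the sums. The number of isoforms at 1 or more was 2 with total counts in place of 4, while that of all genes was 2659 in place of 3330. The number at 2 or more was 0 when 10 counts were required in both libraries, which leaves out Car4, and the number at -2 or less was 0 with upper quartile factors, under which Car12 was at -1.97. DESeq2 size factors, a prior count of 2 and thinning moved none of the isoforms' ratios or sums outside their counting intervals, although the prior count gave 3.19 in place of 3.78 for Car4, which has 4 control counts. Of 288 alternative counts of list genes 8 moved by more than 1.5 times, of 32 ranks per length 2 moved (Car12 and Car8 in the DSS library with the shortest transcript), and of 16 shares 12 lay outside their counting interval when taken per length. Of all genes past 2 or -2, 54.6% were higher in the DSS library with TMM factors and 41.7% with total counts. Depth limits Car4, Car5b and Car7, with 4, 13 and 36 counts in a library. No paired analysis was possible because each group has 1 library.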
